A study of Mus musculus with 15 samples.

Results

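The complement genes C4b, C1qa, C1qb, C1qc, C3, C1ra, C1s1 and Serping1 were followed by gene symbol through RNA sequencing of the mouse SCN (suprachiasmatic nuclei), a pair of hypothalamic nuclei that act as the master circadian clock. They are 8 of the 24419 genes in the deposited count table, and all 8 passed the filter on low counts that left 16910 genes for testing. The libraries fall into 4 groups: REV-ERBS DKO, lacking REV-ERB alpha and beta, at CT4 (3 libraries), control at CT4 (3 libraries), DKO at CT16 (4 libraries) and control at CT16 (5 libraries). CT is circadian time, so that CT4 lies in the subjective day and CT16 in the subjective night. Mice of all groups were C57BL/6 and 8 to 12 weeks old, and 2 to 4 punches were pooled per library. The sources used here do not give the promoter or Cre line behind the deletion, the alleles of the controls or the animals within each pool. The libraries held 32580803 to 68757624 counted reads.

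REV-ERB alpha and beta, encoded by Nr1d1 and Nr1d2, are haem-binding nuclear receptors that repress transcription within the circadian clock. Complement is a chain of secreted proteins of innate immunity. In its classical branch the C1 complex, built of C1q and the proteases C1r and C1s, cleaves C4 and then C2, and the enzyme formed by their fragments cleaves C3, whose fragments tag surfaces for uptake. In the brain, C1q comes mainly from microglia, C4 is made by astrocytes, oligodendrocytes and other cells, and tagging by C1q and C3 is known for the removal of synapses by microglia.

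The largest genotype difference among the 8 genes was that of C4b, which encodes complement component 4 and was higher in DKO at CT16 by 1.86 ± 0.37 (log2 fold change ± standard error; 3.62-fold). The genes of C1q had log2 fold changes of at most 0.26 at both times and did not pass the test. C3, the central protein cleaved by all branches, and Serping1, the inhibitor of C1r and C1s, had positive log2 fold changes at CT16 that did not pass after adjustment. C1ra and C1s1, the proteases of C1, were counted by few reads in every library.

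C4b lies on chromosome 17 (34728381 to 34743897, minus strand, mm10), in the major histocompatibility region, and has a near copy, C4a, on the same strand (34809092 to 34823454). Since reads of one copy can match the other, the transcripts were compared first. Over 5367 aligned bases they were 96.1% identical. The longest identical run was 433 bases, and 35.2% of the 50-base stretches of C4b, but 16.5% of its 100-base stretches, occur in C4a without a mismatch. The stretch of 60 bases below, in exon 21 of 41 of C4b (chr17:34735430-34735489, minus strand, GRCm38, GENCODE M21), is shown because it holds 13 of the differences by which reads of the copies can be told apart. Capitals mark the bases that differ.
C4b: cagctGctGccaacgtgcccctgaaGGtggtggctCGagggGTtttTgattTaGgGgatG
C4a: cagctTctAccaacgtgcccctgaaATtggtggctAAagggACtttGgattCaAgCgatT

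C1qa (136895916 to 136898844), C1qb (136880145 to 136886177) and C1qc (136889802 to 136892914) form a cluster on the minus strand of chromosome 4 and encode the chains of 1 protein. Since the results on them turn on how they vary together, the promoters of C1qb and C1qc are shown, a choice made after their values were seen. Each is the sequence (GRCm38.p6) from 250 bases before to 50 bases after the start site given by RefSeq, read along the minus strand. For C1qb this start site lies upstream of the span given above. Capitals mark matches on either strand to AGGTCA, the binding letters shared by many nuclear receptors, and to GAGGAA, letters bound by PU.1, the factor of myeloid cells.
C1qb, chr4:136886151-136886450: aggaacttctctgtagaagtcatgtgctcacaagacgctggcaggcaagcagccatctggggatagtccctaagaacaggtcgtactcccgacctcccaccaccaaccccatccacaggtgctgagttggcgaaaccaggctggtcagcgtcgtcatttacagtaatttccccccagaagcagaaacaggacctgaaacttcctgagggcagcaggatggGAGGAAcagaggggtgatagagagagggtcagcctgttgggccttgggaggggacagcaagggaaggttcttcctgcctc
C1qc, chr4:136892865-136893164: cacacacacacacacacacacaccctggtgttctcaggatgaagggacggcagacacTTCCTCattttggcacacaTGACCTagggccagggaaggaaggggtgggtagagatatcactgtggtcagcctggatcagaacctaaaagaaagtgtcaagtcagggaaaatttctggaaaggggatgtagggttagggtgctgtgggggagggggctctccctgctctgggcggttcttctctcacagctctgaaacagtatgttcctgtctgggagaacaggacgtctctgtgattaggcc
Of the 32851 promoters of this table, 16.3% hold AGGTCA and 28.3% hold GAGGAA on either strand. The RORE, a longer pattern of an A/T-rich flank followed by TAGGTCA, was also searched for. It had 0 matches in the promoters of C1qb and C1qc, and 0.180% of all promoters hold it. Relative to the start site, GAGGAA lay at -30 in C1qb and, on the opposite strand, at -193 in C1qc, and AGGTCA at -174 in C1qc, likewise on the opposite strand. The table matched 5 of the 8 genes (C1qb, C1qc, C3, C1ra and C1s1). It held no promoter of C4b, C1qa or Serping1, so these were not searched. Of the matched genes not shown, C3 had AGGTCA at -243, and C1ra had GAGGAA at 45 on the opposite strand. C1s1 had neither.

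Levels between genes were compared as CPM per kilobase of exon, where CPM is the usual read count scaled to sequencing depth, here with library sizes adjusted by TMM. Over the 15 libraries, C1qb averaged 32.9, C4b 32.7, C1qc 28.5 and C1qa 27.3 CPM per kilobase. C3, at 3.97, and Serping1, at 3.48 CPM per kilobase, formed a middle tier, and C1s1, at 0.269, and C1ra, at 0.165 CPM per kilobase, a bottom tier. The ranges over libraries overlapped within each tier and not between tiers. C4b ran from 11.1 to 97.3 CPM per kilobase, around all values of the C1q genes, which lay between 20.7 and 50.6. C4b thus changed its place with the group: it averaged 56.0 ± 32.6 CPM per kilobase in DKO at CT16 (SD, n = 4) and 15.5 ± 4.70 in control at CT16 (SD, n = 5), while C1qb averaged 35.4 ± 10.9 in DKO and 29.4 ± 2.11 in control at that time. C4a averaged 1.99 CPM per kilobase over all libraries.

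At CT4, C4b stood at 223, 222 and 206 CPM in the DKO libraries, against 153, 80.4 and 138 CPM in the control libraries. The groups did not overlap, which held for higher values in DKO in 12.1% of all tested genes and for C4b alone among the 8. The log2 fold change was 0.81 ± 0.45 (95% interval -0.18 to 1.80) and did not pass (edgeR quasi-likelihood test, Benjamini-Hochberg adjusted p = 0.453).

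At CT16, C4b stood at 187, 358, 139 and 525 CPM in the DKO libraries, against 104, 117, 59.7, 66.2 and 70.2 CPM in the control libraries. Every DKO library was above every control library, as in 4.03% of all tested genes, but the DKO libraries spread widely, replicate 3 being low and replicate 4 high. The log2 fold change of 1.86 ± 0.37 had a 95% interval of 1.04 to 2.67 and passed (edgeR quasi-likelihood test, adjusted p = 0.0158). C4b was thereby the 1 gene of 8 called at CT16, where 4.66% of all tested genes were called and 2.83% were called higher in DKO. The call ended without DKO CT16 replicate 2 (1.77, adjusted p = 0.0559), in a fit on the CT16 groups alone (1.86, adjusted p = 0.0747) and with a replicate block (1.68, adjusted p = 0.114), in edgeR's quasi-likelihood test throughout. Without replicate 4 the value was 1.45 (adjusted p = 0.0477).

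**Figure D1:**
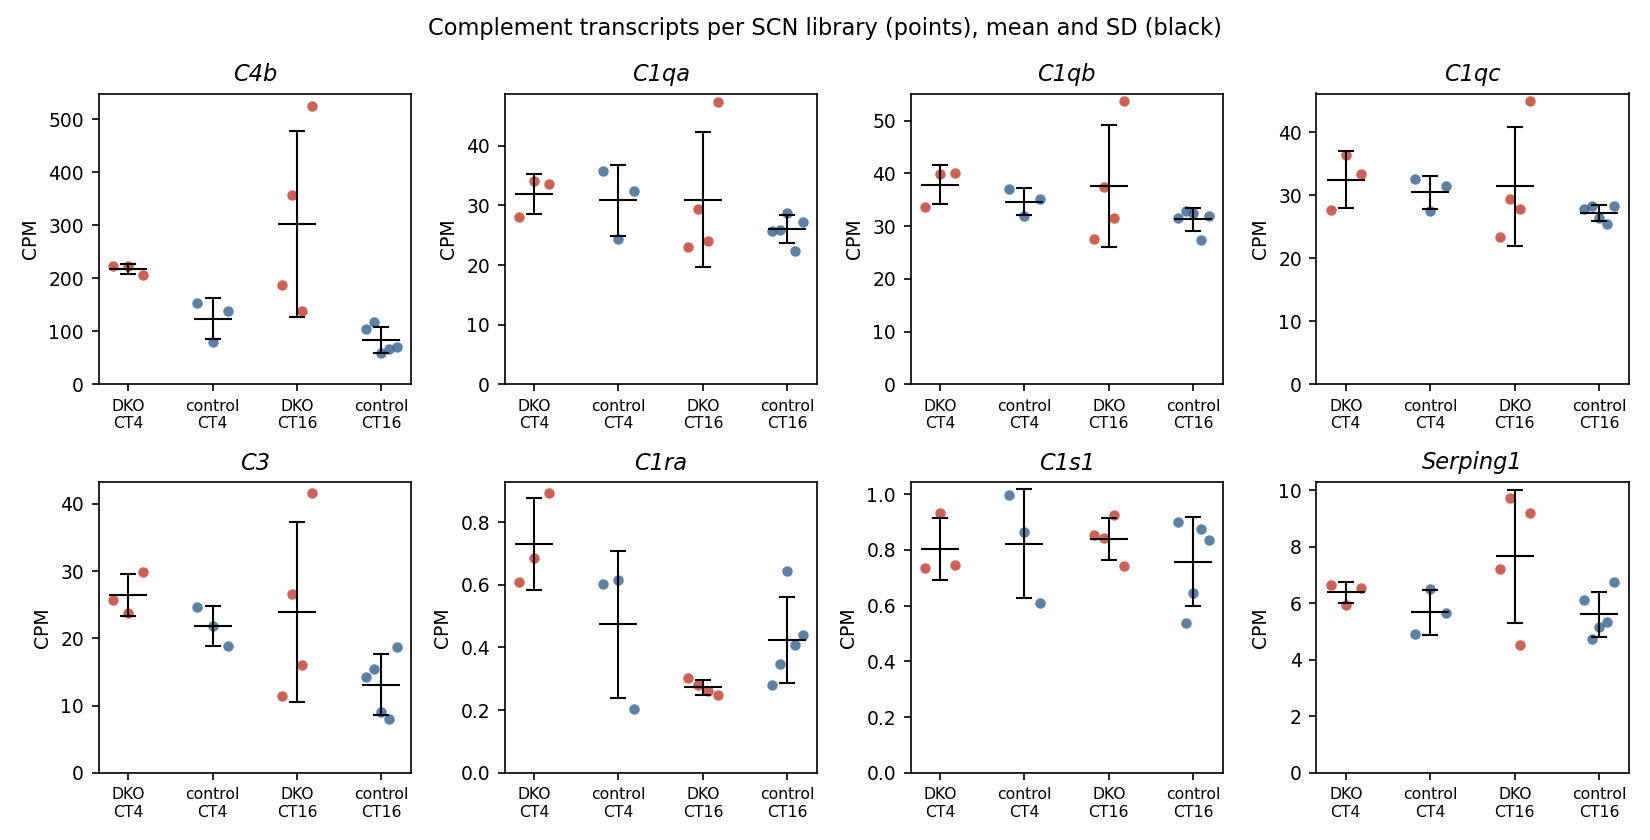
CPM of the 8 complement genes (vertical axes, from 0) in each library, with DKO in red and control in blue at CT4 and at CT16; horizontal lines are means and bars SD. The 4 DKO libraries at CT16 lie at 139 to 525 CPM of C4b, above the 5 control libraries at 59.7 to 117 CPM, while the groups overlap for the genes of C1q.

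No time effect on C4b passed. In control it was at 59.7 to 117 CPM at CT16 and 80.4 to 153 CPM at CT4 (log2 fold change -0.57 ± 0.40, edgeR quasi-likelihood test, adjusted p = 0.465). In DKO it was at 139 to 525 CPM at CT16 and 206 to 223 CPM at CT4 (0.48 ± 0.42, adjusted p = 0.590, same test). The genotype effect was larger at CT16 than at CT4 by 1.05 ± 0.58 on the log2 scale (95% interval -0.23 to 2.33), an interaction that did not pass (adjusted p = 0.421, same test), so a difference between the times is not shown.

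The copy C4a was tested in the same way. It had 7.39 to 15.9 CPM in DKO and 8.49 to 9.49 CPM in control at CT16, and its log2 fold change was 0.40 ± 0.18 there (edgeR quasi-likelihood test, adjusted p = 0.236) and 0.09 ± 0.22 at CT4 (adjusted p = 0.896). Over 25 alternatives the log2 fold change of C4a at CT16 lay between 0.17 and 0.57, and it passed in 1 of them. The ratio of C4b to C4a, in CPM per kilobase, was 15.7 to 21.3 in DKO and 10.0 to 12.6 in control at CT4. At CT16 it was 17.4 to 32.8 in DKO and 6.94 to 13.7 in control. The ratio was therefore higher in every DKO library than in every control library of its time. The sources used here do not give how the authors' counting treated reads that match both copies. Of the genes within 50 kb of C4b, Tnxb alone is in the table; it had log2 fold changes of 1.20 ± 0.49 at CT4 and 0.77 ± 0.39 at CT16 and did not pass (edgeR quasi-likelihood test, adjusted p = 0.274 and 0.299).

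The tissue of the punches varied beside C4b. In bulk tissue, fewer cells of a type and less RNA per cell cannot be told apart. Markers of oligodendrocytes and myelin, such as Mbp, had positive log2 fold changes in DKO at CT16 in 12 of 12 cases (median 0.72), with none called. Their summed level ran from 3923 to 20073 CPM in DKO and from 2967 to 9761 CPM in control at CT16, the highest being DKO replicate 4, which also had the most C4b. At CT4 the sums were 6278 to 7047 CPM in DKO and 5482 to 7917 CPM in control. None of these 12 markers was at 0 in any library.

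C4b was set against these markers. C4b per summed myelin marker was 0.0292 to 0.0356 in DKO and 0.0147 to 0.0232 in control at CT4, and 0.0262 to 0.0476 in DKO and 0.0120 to 0.0237 in control at CT16. C4b per summed level of 14 astrocyte markers was 0.0223 to 0.0794 in DKO and 0.0110 to 0.0186 in control at CT16. Of these astrocyte markers, 3 rose at CT16, 1 fell and 10 did not pass. Of all tested genes, 2.83% rose at CT16 and 4.66% were called in either direction. Atp1b2 (0.31 ± 0.06, edgeR quasi-likelihood test, adjusted p = 0.00615), Gja1 (0.32 ± 0.07, adjusted p = 0.0157) and Agt (0.40 ± 0.10, adjusted p = 0.0324) rose, and Aldh1l1 fell by 0.35 ± 0.06 (adjusted p = 0.00166). The groups overlapped for Gja1 and Agt and not for Atp1b2 and Aldh1l1. The part of these astrocyte markers in the difference of C4b was not tested. With a myelin score as covariate, the log2 fold change of C4b at CT16 was 1.28 ± 0.18 (edgeR quasi-likelihood test, adjusted p = 0.00222), and with a microglia score 1.29 ± 0.24 (adjusted p = 0.0145), both below the 1.86 without a covariate. The myelin score of DKO CT16 replicate 4 was 8.86 and the highest of any control library 7.79, so the fit has no control of like score for that library. The value at CT4 with the myelin score was 0.81 ± 0.20 (adjusted p = 0.0531), the lowest adjusted p at CT4 of all alternatives. Another fit left out 3 libraries picked by hand as standing apart (replicate 1 of control CT4 and replicates 3 and 4 of DKO CT16). Kept were replicates 1 and 2 of control CT16, at 7760 and 9761 CPM of summed myelin markers. The rest of that group lay at 2967 to 3592 CPM. Without the 3 libraries, C4b differed by 1.71 ± 0.33 at CT16 (adjusted p = 0.0381) and by 0.99 ± 0.40 at CT4 (adjusted p = 0.235), in the same test.

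**Figure D2:**
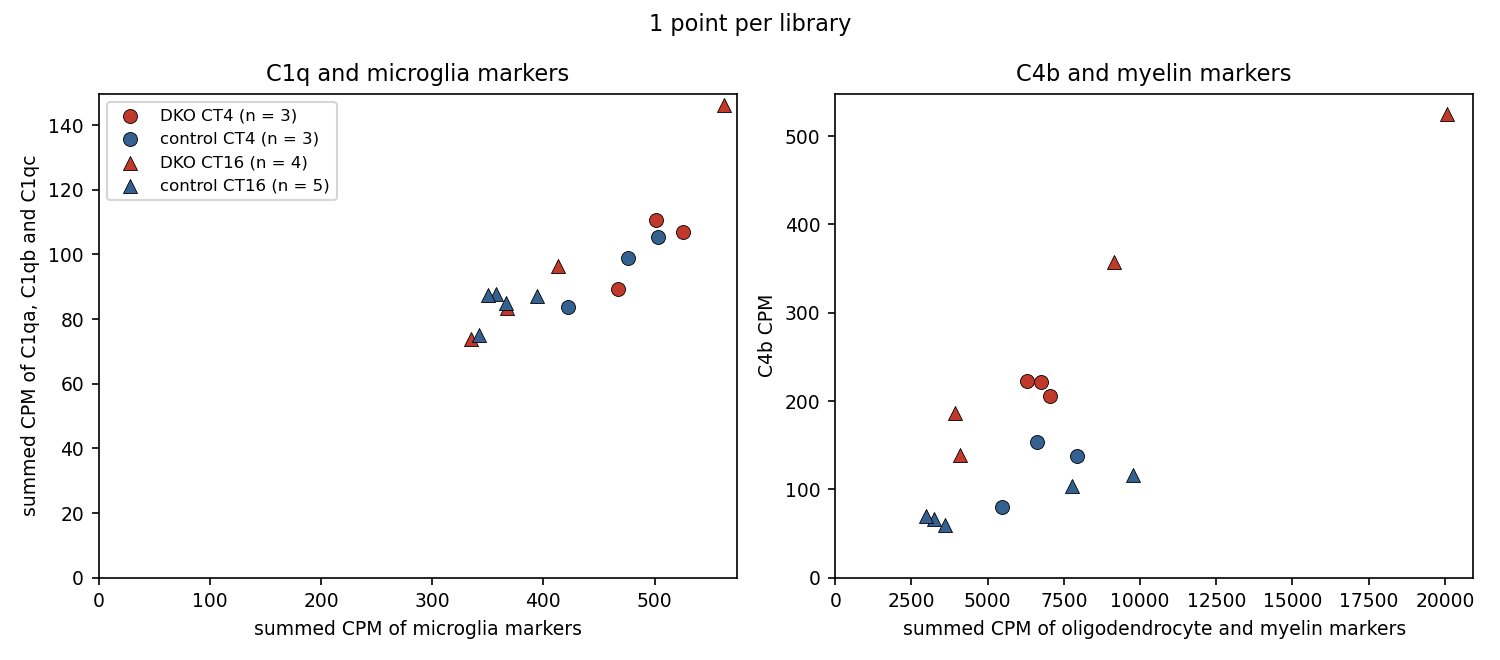
Left, summed CPM of C1qa, C1qb and C1qc against summed CPM of 16 microglia markers; right, C4b CPM against summed CPM of 12 oligodendrocyte and myelin markers; 1 point per library. DKO (red) and control (blue) intermingle on the left. On the right the DKO points lie above control points of like myelin level where there are such control points. DKO CT16 replicate 4, at 20073 CPM of myelin markers and 525 CPM of C4b, has none, as the highest control is at 9761 CPM of myelin markers.

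C1q was close in the 2 genotypes. At CT16, C1qb stood at 27.5, 37.4, 31.5 and 53.8 CPM in DKO, against 31.5, 32.9, 32.5, 27.4 and 32.0 CPM in control. At CT4 it stood at 33.6, 40.0 and 40.0 CPM in DKO and at 37.0, 31.8 and 35.2 CPM in control. The groups overlapped at both times, and the mean at CT16 was drawn up by DKO replicate 4. The log2 fold changes at CT16 were 0.26 ± 0.15 for C1qb (95% interval -0.06 to 0.59), 0.25 ± 0.19 for C1qa (-0.17 to 0.66) and 0.20 ± 0.15 for C1qc (-0.11 to 0.52). At CT4 they were 0.13 ± 0.18 for C1qb, 0.05 ± 0.23 for C1qa and 0.09 ± 0.18 for C1qc. None passed (edgeR quasi-likelihood test, adjusted p = 0.358 to 0.495 at CT16 and 0.808 to 0.949 at CT4). The interval of C1qa was the widest, at -0.17 to 0.66 at CT16 and -0.45 to 0.56 at CT4. Changes within the intervals remain possible.

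The transcripts of C1q, which encode 3 chains of 1 protein, kept a near constant ratio. The reason was not tested. Per kilobase, C1qa made up 28.4 to 33.5%, C1qb 35.2 to 38.9% and C1qc 30.4 to 34.2% of their sum in the 15 libraries. On the log2 CPM scale their pairwise correlations over the libraries were r = 0.95 for C1qa and C1qb, 0.93 for C1qa and C1qc and 0.96 for C1qb and C1qc, with Spearman's rho of 0.94, 0.86 and 0.88. The 15 points share their groups and tissue makeup, so these values are a description.

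C1q was next set against the level of microglia. Of 16 microglia markers, 15 had a positive log2 fold change in DKO at CT16 (median 0.19) and none was called. The summed CPM of C1q divided by that of the markers was 0.221 to 0.260 in DKO and 0.220 to 0.250 in control at CT16, and 0.191 to 0.220 in DKO and 0.198 to 0.209 in control at CT4. The ratio overlapped between genotypes at both times. None of the 16 markers was at 0 in any library.

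The microglia markers were also compared across time. In control, 7 of the 16 markers fell at CT16 and none rose (median -0.45), among them Cx3cr1, the fractalkine receptor, by 0.68 ± 0.13 (edgeR quasi-likelihood test, adjusted p = 0.00995). In DKO, 3 of 16 fell (median -0.25), and the summed level of the markers was 335 to 562 CPM at CT16 and 467 to 525 CPM at CT4, replicate 4 at CT16 being the highest of all 15 libraries. Of all tested genes, 2.08% fell at CT16 in control and 0.509% in DKO. For C1qa, C1qb and C1qc the log2 fold changes of CT16 over CT4 were -0.25 ± 0.21, -0.15 ± 0.16 and -0.16 ± 0.16 in control, and -0.05 ± 0.22, -0.01 ± 0.17 and -0.05 ± 0.17 in DKO, and none passed (adjusted p = 0.555 to 0.663 in control and 0.905 to 0.971 in DKO, same test). The difference between C1q and the markers was not itself tested.

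C3 spans 57203967 to 57228136 on the minus strand of chromosome 17. At CT16 it stood at 11.4, 26.7, 15.98 and 41.6 CPM in DKO, against 14.2, 15.5, 9.03, 8.01 and 18.8 CPM in control. The groups overlapped, and replicates 2 and 4 of DKO were above all control libraries. The log2 fold change of 0.86 ± 0.35 had an unadjusted p of 0.0301 and did not pass (edgeR quasi-likelihood test, adjusted p = 0.195). It was 0.46 without DKO replicate 4 and 0.54 without the 3 libraries picked by hand. With the microglia score it was 0.32 and with the myelin score 0.38 (adjusted p = 0.557 to 0.619 over these fits, same test). At CT4, C3 was at 23.7 to 29.8 CPM in DKO and 18.8 to 24.7 CPM in control (0.28 ± 0.42, adjusted p = 0.823, same test). In control the libraries at CT16 lay below all those at CT4, whose lowest value of 18.80 CPM was next to the highest of 18.77 CPM at CT16, and the log2 fold change of -0.74 ± 0.38 did not pass (adjusted p = 0.307). Lower values at CT16 without overlap occurred in 7.80% of tested genes in control.

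Serping1 (chromosome 2, 84765360 to 84775429, minus strand) encodes the C1 inhibitor. At CT16 it stood at 7.21, 9.74, 4.53 and 9.18 CPM in DKO, against 6.11, 4.73, 5.16, 5.33 and 6.74 CPM in control. DKO replicate 3 was below all control libraries and the other 3 DKO libraries were above them. The log2 fold change was 0.45 ± 0.18 and did not pass (edgeR quasi-likelihood test, adjusted p = 0.175), while without DKO replicate 3 it was 0.63 and passed (adjusted p = 0.0117) and without DKO replicate 2 it was 0.31 (adjusted p = 0.442). At CT4, Serping1 stood at 5.95 to 6.65 CPM in DKO and 4.90 to 6.49 CPM in control (0.17 ± 0.22, adjusted p = 0.786, same test).

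C1ra (chromosome 6, 124512621 to 124523440, plus strand) and C1s1 (124530344 to 124542359, minus strand) had 7 to 30 and 21 to 64 reads per library. The smallest change that could be detected at such counts was not tested. Both have near copies: the C1ra and C1rb transcripts were 98.0% and those of C1s1 and C1s2 95.9% identical over their alignments. C1rb had 0 to 4 reads in a library and was not tested, and C1s2 had 13 to 45 and passed in no comparison. How reads divide between the copies is therefore uncertain for both proteases.

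C1ra differed most between the times within DKO. It stood at 0.301, 0.281, 0.260 and 0.247 CPM in DKO at CT16, against 0.609, 0.685 and 0.894 CPM in DKO at CT4. The groups did not overlap, as in 6.38% of tested genes in that direction, and the log2 fold change was -1.41 ± 0.39 (edgeR quasi-likelihood test, adjusted p = 0.0737). It did not pass there, and did with DESeq2 (-1.42, adjusted p = 0.0271). Between genotypes the log2 fold change was -0.63 ± 0.35 at CT16 and 0.59 ± 0.41 at CT4, and in control CT16 over CT4 it was -0.18 ± 0.37. C1s1 had log2 fold changes of 0.16 ± 0.23 at CT16 and -0.04 ± 0.29 at CT4 in DKO over control. Neither gene passed in a genotype comparison (adjusted p = 0.336 to 0.966, same test).

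**Figure D3:**
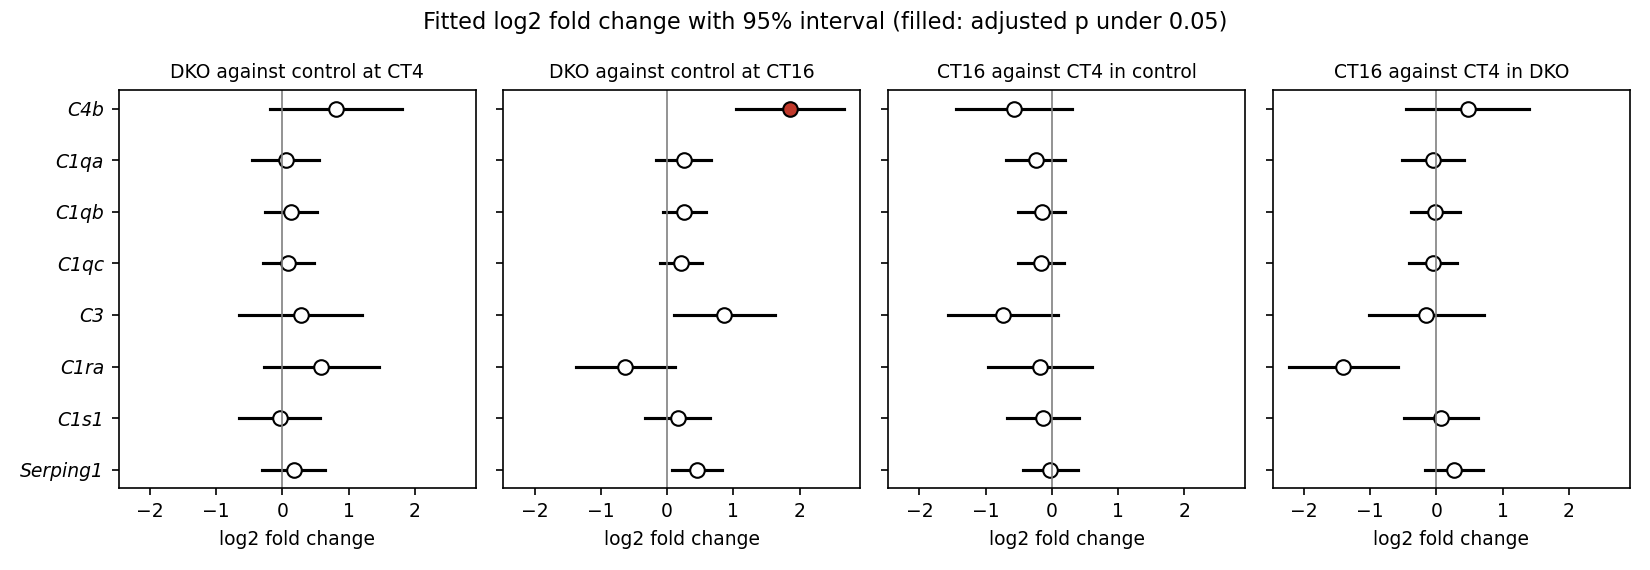
Log2 fold change (horizontal axis) of the 8 genes with 95% intervals in the genotype comparisons at CT4 and CT16 and the time comparisons in control and DKO; a filled point has an adjusted p under 0.05. C4b at CT16 (1.86, interval 1.04 to 2.67) is the 1 filled point, and the unadjusted intervals of C3 (0.098 to 1.63) and Serping1 (0.067 to 0.83) at CT16 and of C1ra between the times in DKO (-2.23 to -0.58) also lie off 0.

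Taken as counts, the 8 genes gave no call at CT4, where 1.28% of the tested genes were called, and 1 at CT16. No call was made for CT16 over CT4 in control (4.21% of tested genes) or in DKO (1.80%), or for the interaction (0.0118%), with edgeR's quasi-likelihood test. At an unadjusted p under 0.05 there were 0 of the 8 at CT4 (14.8% of all tested genes) and 3 at CT16 (C4b, C3 and Serping1; 20.0%). Between the times there were 0 in control (19.9% of all tested genes), and C1ra alone in DKO (18.6%) and for the interaction (15.1%). Of the 8 log2 fold changes, 7 were positive at CT4 (median 0.15) and 7 at CT16 (median 0.25), with C1s1 negative at CT4 and C1ra negative at CT16. The medians over all tested genes were -0.0023 and 0.0022.

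Few of the remaining genes of the pathway passed. Of 48 further complement genes, 34 were tested and 14 had too few reads, among them Mbl1, a lectin that starts the lectin branch, listed at 0 in all libraries. At CT4, 0 of the 34 rose, 2 fell in DKO and 32 did not pass; at CT16, 1 rose, 0 fell and 33 did not pass. Of all tested genes, 1.28% were called at CT4 and 2.83% rose at CT16. Their median log2 fold changes were 0.05 at CT4 and -0.01 at CT16. Cfp, encoding properdin, which stabilises the C3-cleaving enzyme of the alternative branch, fell by 0.40 ± 0.09 at CT4 (edgeR quasi-likelihood test, adjusted p = 0.0405). It was at 13.8, 16.01 and 17.2 CPM in DKO and 19.3, 21.4 and 21.4 CPM in control. Cr2, a receptor for fragments of C3, fell by 2.06 ± 0.48 at CT4 on 13 to 18 reads per DKO library and 45 to 128 per control library (adjusted p = 0.0470, same test). These calls ended in 10 and 12 of 25 alternatives.

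Clu, encoding clusterin, an inhibitor of the terminal complex and an abundant astrocyte product, rose at CT16 by 0.26 ± 0.07 (edgeR quasi-likelihood test, adjusted p = 0.0423). It stood at 787, 861, 881 and 1047 CPM in DKO and at 743, 812, 729, 703 and 754 CPM in control, with 1 DKO library inside the range of control, and the call ended in 18 of 25 alternatives. C2, the partner of C4 in the classical enzyme, was at 1.63 to 5.36 CPM in DKO and 3.82 to 7.31 CPM in control at CT16 and did not pass. Between the times, the 1 call among the 34 was Cd46, a membrane regulator, which fell in control by 0.64 ± 0.16 at CT16 (adjusted p = 0.0311, same test). Its call ended in 8 of 25 alternatives, and 2.08% of all tested genes fell at CT16 in control.

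**Figure D4:**
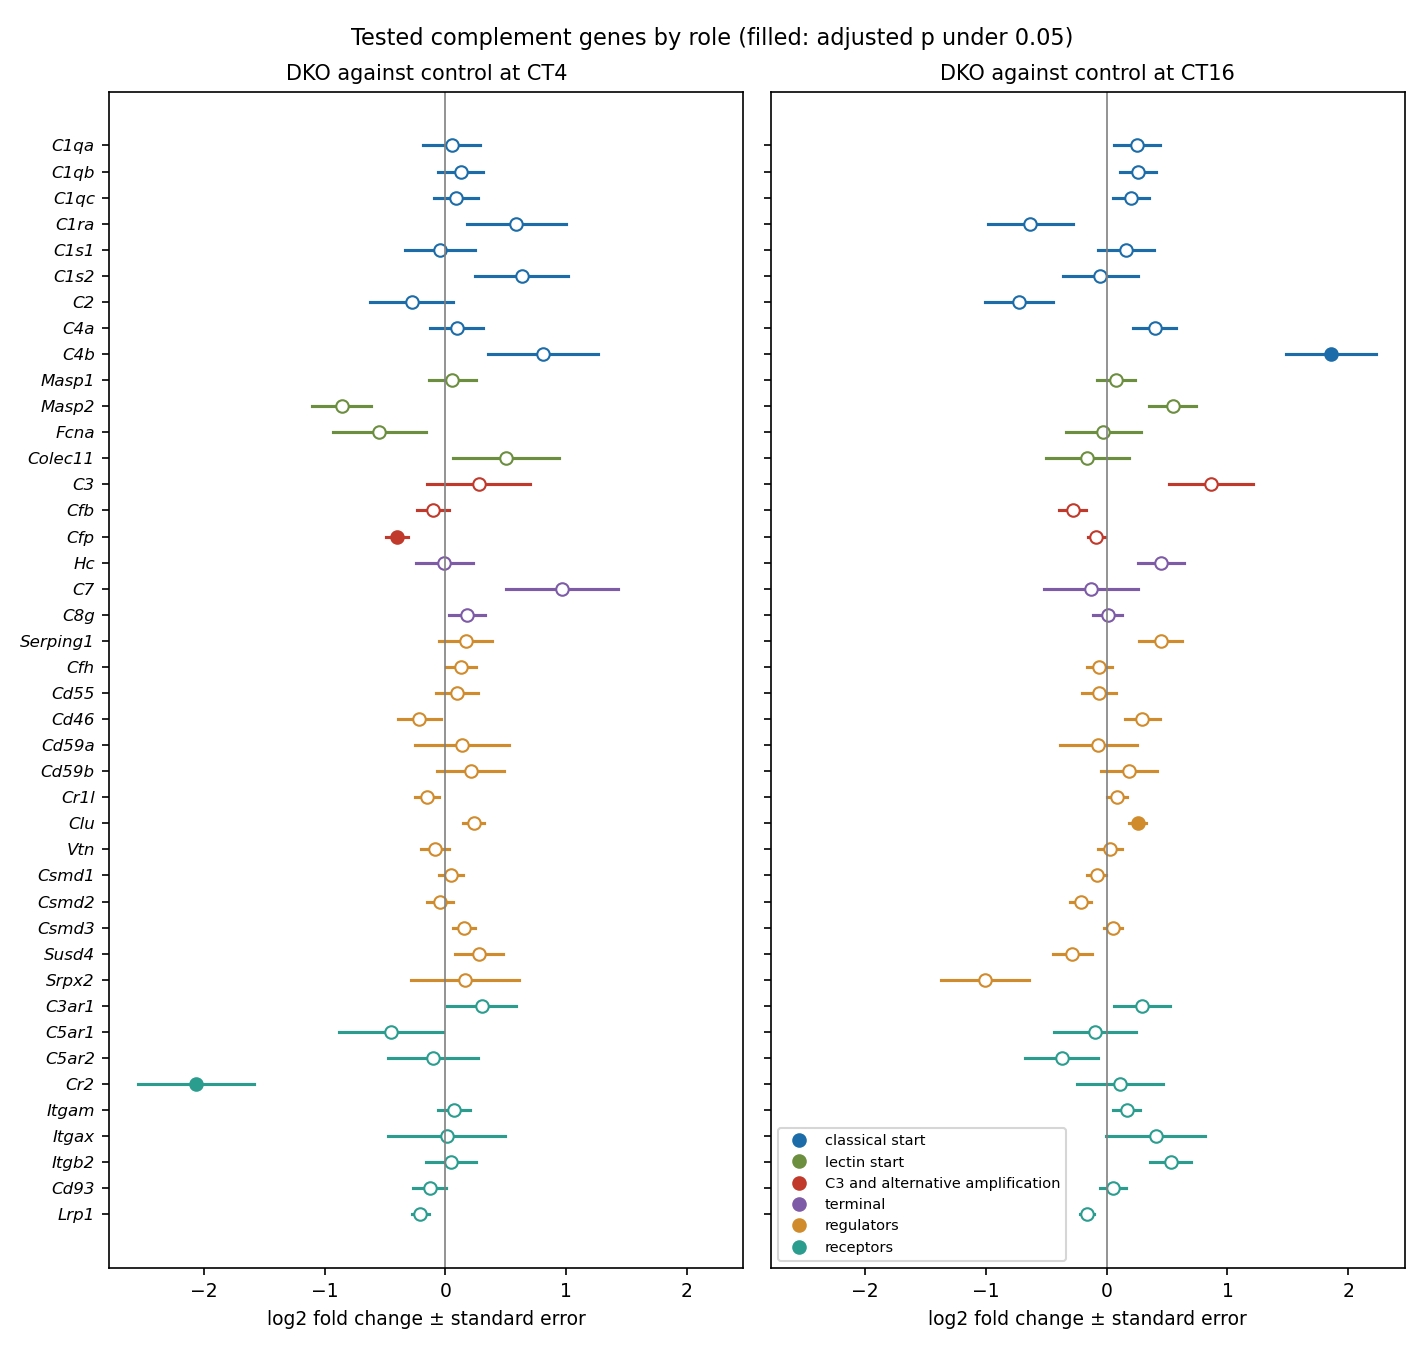
Log2 fold change ± standard error (horizontal axis) of the 42 tested complement genes, DKO against control at CT4 (left) and CT16 (right), coloured by role; filled points have an adjusted p under 0.05. Filled are Cfp (-0.40) and Cr2 (-2.06) at CT4, and C4b (1.86) and Clu (0.26) at CT16.

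Genes of signals known to raise complement were also counted. The cytokine genes Il6, Il1b, Tnf, Ifng and Ifnb1 were listed at 0 in 4, 4, 7, 7 and 14 of the 15 libraries. The other 10 genes of this list were tested and none was called in a genotype comparison, with median log2 fold changes of 0.23 at CT4 and 0.10 at CT16. At CT4 the 3 with the smallest p, Cebpb (0.88 ± 0.24, edgeR quasi-likelihood test, adjusted p = 0.0831), Cebpd (0.74 ± 0.26, adjusted p = 0.181) and Nfkbia (0.45 ± 0.19, adjusted p = 0.274), had higher values in every DKO library than in every control library, as did 12.1% of all tested genes, and none of the 3 passed. Of 16 interferon-responsive genes none was called in either genotype comparison, with median log2 fold changes of 0.15 at CT4 and -0.30 at CT16. Of 20 reactive glia genes, 1 is also a complement gene. Of the 20, Cd109 (0.65 ± 0.11, edgeR quasi-likelihood test, adjusted p = 0.00285) and Cp, encoding ceruloplasmin (0.57 ± 0.10, adjusted p = 0.00368), rose at CT16, where 2.83% of all tested genes rose. None was called at CT4, where 1.28% were called. H2-D1 at CT4 (0.37 ± 0.09, adjusted p = 0.0621) passed in 7 of 25 alternatives, DESeq2 (adjusted p = 0.0120) among them. Without the 3 libraries picked by hand Cd109 and Cp were 0.48 and 0.35 and did not pass (edgeR quasi-likelihood test, adjusted p = 0.0691 and 0.0756).

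Among 13547 genes with a mean of at least 1 log2 CPM, those whose levels over the 15 libraries were most like C4b included Fgd3 (Pearson's r = 0.96, Spearman's rho = 0.95), Hhatl (0.95 and 0.92), Ski (0.95 and 0.95), Lamp1 (0.94 and 0.91), Ninj2 (0.94 and 0.94), Mgll (0.94 and 0.92) and Rnf144a (0.94 and 0.91). Without the 2 libraries farthest from the median of C4b, r was 0.87 to 0.93 for these genes. Most like the mean of C1q were Tyrobp (r = 0.95) and Csf1r (r = 0.93), both on the list of microglia markers, then Atp10b (0.92), Man2b1 (0.90) and Ifi27 (0.89), with r of 0.80 to 0.89 without the 2 farthest libraries. For Serping1 they included Cck (0.88), Mef2c (0.86), Aldh1l2 (0.84) and Dlk1 (0.82), which without the 2 farthest libraries were 0.71, 0.68, 0.62 and 0.54. C4b itself correlated with C3 at r = 0.76 and with C1qb at 0.73, and without the 2 farthest libraries at 0.63 and 0.51. The libraries share group and tissue makeup, so these are descriptions.

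The targeted genes were not lower in DKO. Nr1d1 stood at 226 to 252 CPM in DKO and 198 to 282 CPM in control at CT4, and at 241 to 378 CPM in DKO and 135 to 150 CPM in control at CT16. Nr1d2 stood at 163 to 181 CPM in DKO and 116 to 130 CPM in control at CT4, and at 198 to 259 CPM in DKO and 96.7 to 118 CPM in control at CT16. Counts here are sums over all exons and do not show which exons are missing, so they check no label. SCN markers such as Vip and Avp, and the glial markers Cx3cr1, Aqp4 and Mbp, had reads in all 15 libraries. Their levels were not even: of 12 SCN markers, 11 had negative log2 fold changes in DKO at CT4 (median -0.80), with none called. At CT16, 7 of the 12 were positive (median 0.20) and 2 were called higher, where 2.83% of all tested genes rose. The part of this in the complement values was not tested.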

How the data were processed

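Total RNA of pooled SCN punches was sequenced in 15 libraries. The authors deposited raw counts of reads per gene; STAR, featureCounts, DESeq2 and mm10 are named per the submitters' processing notes, with versions, annotation and strand setting not given in the sources used here. Read loss or sharing at near copies (C4b and C4a, C1ra and C1rb, C1s1 and C1s2) follows from that counting. From these counts, edgeR 4.0.16 in R 4.3.3 kept 16910 genes (filterByExpr), computed TMM factors and fitted 1 quasi-likelihood model with 4 group means, from which DKO over control at each time, CT16 over CT4 in each genotype and their interaction were tested. P-values were adjusted by Benjamini-Hochberg over all tested genes, with a threshold of 0.05, and the steps were tested on simulated counts. Log2 CPM used a prior count of 2.

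Library totals lay between 32580803 and 68757624. Alternatives were RLE factors, DESeq2 1.42.0, limma 3.58.1 (voom with quality weights), no filter, at least 1 CPM in 3 libraries, a fit on the compared groups alone, a replicate block, leaving out each library, leaving out 3 libraries, and a microglia or myelin score as covariate. The 8 genes and all lists were chosen with earlier results of these data known. Named are all 8, their near copies, other complement genes called or with the 5 smallest p per genotype comparison, and the most like genes by a fixed number, of which some are not reported here. C2 was named after its values were seen.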

Additional observations from a re-analysis of the deposited data

Results flagged for a closer look

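C1qb in control CT16 replicate 4 lay apart from the other libraries of its group: it stood at 27.4 CPM, against 31.5 to 32.9 CPM in the other 4. The gap made up 0.754 of the range of the group, more than Dixon's test allows for 5 libraries. Of 16 such tests on the 8 genes in the CT16 groups, this was the 1 that passed, and chance passes about 1 in 20.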

How the results depend on the processing

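For each comparison 25 alternatives were run (24 for the interaction). C4b at CT16 stayed higher in DKO in all of them, between 1.28 and 2.10, and passed in 22; it did not pass with only the CT16 groups (0 of the 8 genes called), with the replicate block (0 called) or without DKO CT16 replicate 2. With 1 library left out at a time, 0 to 2 of the 8 were called at CT16, the second being Serping1 without DKO CT16 replicate 3. C4b at CT4 stayed between 0.58 and 0.99 and passed in none. In control, CT16 against CT4, 1 gene was called with the microglia score as covariate (C1qb, reversed to 0.42). In DKO, CT16 against CT4, 1 was called with DESeq2 and 1 with the myelin score (C1ra in both), and 4 with the microglia score: C4b, and C1qa, C1qb and C1qc, reversed to 0.37, 0.35 and 0.30. The cause was not tested.

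All genes called ranged from 16 to 849 at CT4 (217 as reported), 368 to 1318 at CT16 (788), 235 to 1856 for time in control (712), 47 to 1804 for time in DKO (304) and 1 to 423 for the interaction (2). With the replicate block they were 104, 503, 379, 159 and 1. The deviations of same-numbered libraries correlated at -0.184 to 0.138, so the numbers were not taken to pair samples. Punches were pooled and the group sizes are 3 to 5. Counts of 7 to 30 for C1ra limit its precision.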

Other observations

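Masp2, a protease of the lectin branch, had opposite signs at the times. At CT4 it was at 0.822 to 0.923 CPM in DKO and 1.38 to 1.74 CPM in control (log2 fold change -0.86 ± 0.24, edgeR quasi-likelihood test, adjusted p = 0.0997). At CT16 it was at 1.26 to 1.56 CPM in DKO and 0.731 to 1.30 CPM in control (0.55 ± 0.20, adjusted p = 0.126, same test). The interaction of 1.41 ± 0.31 did not pass (adjusted p = 0.102). Itgb2, a chain of the receptor that binds C3 fragments on microglia, was at 5.42 to 10.4 CPM in DKO and 3.62 to 5.55 CPM in control at CT16 (0.53 ± 0.17, edgeR quasi-likelihood test, adjusted p = 0.0877). Srpx2, known in mouse as an inhibitor of C1q at synapses, was at 0.148 to 0.578 CPM in DKO and 0.621 to 0.885 CPM in control at CT16 (-1.01 ± 0.37, adjusted p = 0.134, same test). Lrp1, an endocytic receptor, had log2 fold changes of -0.21 ± 0.07 at CT4 and -0.16 ± 0.06 at CT16 and did not pass (adjusted p = 0.167 and 0.122, same test).

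Genes of secreted synaptic proteins related to C1q, the C1ql, cerebellin and neuronal pentraxin families, were separate from C1q itself. Of 10, none was called in a genotype comparison. Their log2 fold changes were positive in 7 of 10 at CT4 (median 0.26) and in 2 of 10 at CT16 (median -0.32).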
